A study of Mus musculus with 8 samples.

Results

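The mitochondrial ribosomal protein genes are the nuclear genes whose symbols begin with Mrpl or Mrps followed by a number. They were chosen by that name pattern alone, which matched 78 of the 24746 genes in the count table. Transcripts were measured by RNA sequencing in sorted bone marrow B cells of mice 10 to 12 weeks old. In 4 miR-15 dKO mice (miR-15a/bfl/fl Vav-Cre) both miR-15/16 clusters were flanked by loxP sites, and 4 control mice (miR-15a/b+/+ Vav-Cre) had wild-type clusters. All 8 mice carried Vav-Cre, a transgene that drives Cre in all blood-forming lineages, so the deletion was not limited to the sorted B cells. On their cell type the sources differ, B1a B cells (an innate-like type) in the sample labels and pro-B cells in the design text.

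Mitochondria carry their own ribosome, the mitoribosome, which translates the few messages of mitochondrial DNA into core subunits of the respiratory chain and ATP synthase. Its RNA comes from mitochondrial DNA, but every one of its proteins is encoded in the nucleus and imported. Some of these proteins descend from those of bacterial ribosomes and others have no bacterial counterpart. The roles given below were worked out mainly on human, bovine and porcine mitoribosomes. By structure, 51 of the 78 genes encode large subunit proteins, Mrps18a and Mrps30 among them despite their names, and 26 encode small subunit proteins. Mrps36 encodes a protein now assigned to the 2-oxoglutarate dehydrogenase complex and belongs to neither class.

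The deleted microRNAs silence transcripts that pair with their seed, bases 2 to 8 from the 5′ end. Their mature sequences are shown because the seed decides which of the 78 transcripts could pair with them (RefSeq, GRCm38.p6, seed in capitals, 5′ to 3′). miR-15a and 1 copy of miR-16 lie on chromosome 14, and miR-15b and the other copy of miR-16 lie on chromosome 3.
miR-15a: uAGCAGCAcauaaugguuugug
miR-15b: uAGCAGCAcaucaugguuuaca
miR-16: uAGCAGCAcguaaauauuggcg
All 3 share the seed AGCAGCA, whose match in a transcript reads TGCTGCT, or GCTGCTA where the last seed base is left unpaired and an A follows. In the longest annotated 3′ UTR of each gene (GENCODE M21, GRCm38), 14 of the 78 genes (17.9%) held at least 1 such 7-base match. Among 10597 other tested genes the share was 28.1%. The 3′ UTRs of the mitochondrial ribosomal protein genes were shorter, with a median of 388.5 bases against 1139 bases for the other tested genes. Of their 21 sites, 3 matched the whole seed and were followed by an A, and these are shown with the match in capitals. They lie in Mrps6 and Mrps25, which encode small subunit proteins, and in Mrpl3, which encodes a large subunit protein.
Mrps6 site: ggcactatgggTGCTGCTAggttgttgtct
Mrpl3 site: gtggcatgtgtTGCTGCTAcctactgagct
Mrps25 site: tactgttaggtTGCTGCTAagacaatagcc

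Every library held the 78 genes at ample counts. Total depth was 25565090 to 34954230 counts per library, and the lowest count of any member in any library was 190 and the highest 15074. All 78 members passed the filter on low counts, which left 11363 genes for testing. The mean level of a member had a median of 113.4 CPM (counts scaled to a common library total), against 11.03 CPM over all genes tested. Cd79a, the B cell receptor signalling chain, was between 12144 and 13845 CPM in the dKO libraries and between 11983 and 15884 CPM in the controls. Rag1, a recombinase gene that marks pro-B cells, had no count in any dKO library and reached 0.135 CPM in control 2, the only control with a count. Igll1, part of the pre-B cell receptor, stayed at or below 0.477 CPM in dKO and 0.808 CPM in controls. Of 11 pro-B markers 7 had a mean under 1 CPM, and Il7r, Flt3, Vpreb1 and Vpreb3 were above it. All 11 together reached 55.1 CPM in dKO and 247.1 CPM in controls. Dleu2, which hosts miR-15a and miR-16-1, was higher in dKO, by 2.33 ± 0.24 on the log2 scale (SE, n = 4 each, edgeR adjusted p = 0.0065). Smc4, which hosts miR-15b and miR-16-2, differed by 0.08 ± 0.23 on that scale (SE, n = 4 each, edgeR adjusted p = 0.94). Host transcripts lie partly outside the deleted segments and the 4 microRNA precursors had no counts, so neither gene checks the deletion.

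No mitochondrial ribosomal protein gene changed between dKO and control at an adjusted p under 0.05. The count was 0 of 78 with edgeR's quasi-likelihood test, where 10 of 11363 genes (0.088%) were called. DESeq2 also called 0 members, and limma voom with quality weights called 1, Mrpl38, in a fit that called 2.48% of all genes tested. At an unadjusted edgeR p under 0.05, 3 members were lower in dKO, against 4.84% of all genes tested, and 0 were higher, against 5.98%. The 4 dKO libraries lay wholly below the 4 controls for 3 members, the same 3, against 2.96% of all genes tested. They lay wholly above for 0 members, against 4.0% of all genes tested. With all 8 libraries these shares were close to or under those of the whole table, and they depended on single libraries. Members lower in dKO at an unadjusted edgeR p under 0.05 numbered 14 of 78 without control 2, against 6.11% of all genes tested, and 8 of 78 without dKO 4, against 5.67%. With any other single library left out they numbered 2 or 3 of 78, fits for which the whole-table share is not given. Members without overlap and lower in dKO numbered 13 of 78 without control 2, against 5.56% of all genes tested, and 12 of 78 without dKO 4, against 6.26%. They numbered 14 of 78 without control 1 and control 2, a comparison added after seeing the data, against 10.4%. In that comparison 4 of 78 members were lower at an unadjusted edgeR p under 0.05, a count for which the whole-table share is not given. In the counts with a whole-table share beside them, the members' share was above it without control 2, without dKO 4 and without control 1 and control 2. Control 2 was the lowest control for 65 of 78 members, and dKO 4 had the highest members' mean of the dKO libraries. Leaving out either of them widens a negative difference by itself. EdgeR called 0 members at an adjusted p under 0.05 in these fits. In bulk libraries such as these, fewer cells of a type and less RNA per cell cannot be told apart.

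Most members had small negative fold changes. The log2 fold change of dKO over control was negative for 60 members and positive for 18, so 76.9% were negative, against 52.3% of all genes tested. Its median was −0.14 over the members and −0.02 over all genes tested, with a range of −0.63 to 0.24 among the members. The median standard error of a member was 0.17, larger than the members' median difference, and 77 of 78 members differed by less than 1.5-fold. The members vary together between libraries, so the 60 are not 60 separate observations. The split depended on single libraries, and on the controls in both directions. Without control 1 it was 41 negative to 37 positive with a median of −0.01, without control 2 it was 70 to 8 with a median of −0.24, and without dKO 4 it was 67 to 11 with a median of −0.22.

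**Figure D1:**
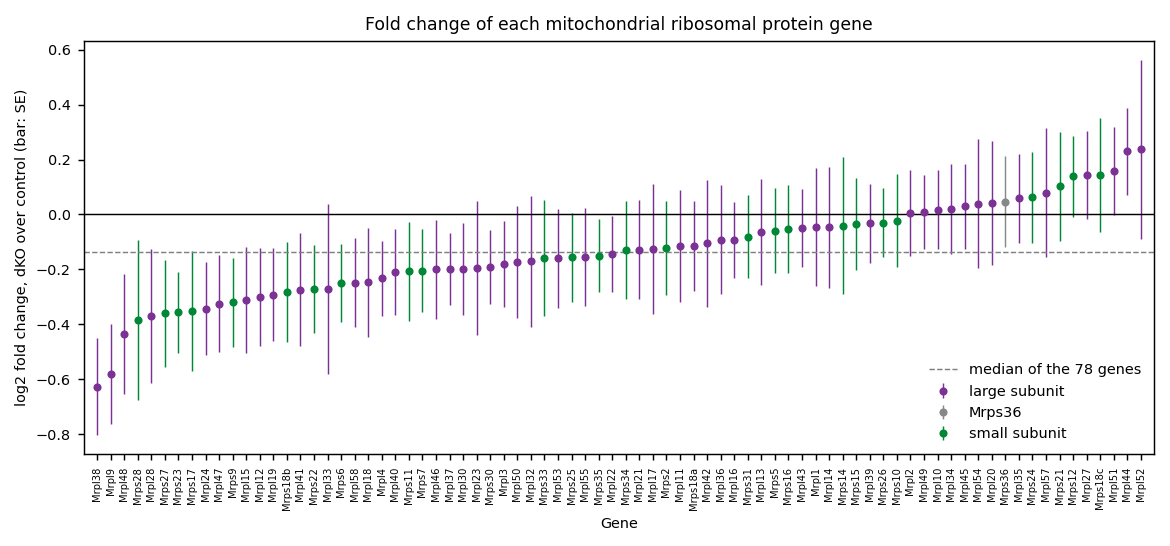
Log2 fold change of dKO over control for each of the 78 genes, ordered by size, with bars of 1 SE, coloured by subunit. Values run from −0.63 to 0.24 and 60 of 78 lie below 0.

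The 3 members whose groups did not overlap were Mrpl38, Mrpl9 and Mrps23. Mrpl38 encodes a protein without bacterial counterpart in the central protuberance of the large subunit. It had 36.7, 31.4, 34.4 and 44.6 CPM in dKO 1 to 4, against 46.2, 68.4, 47.1 and 65.5 CPM in control 1 to 4. The controls formed a lower pair (1 and 3) and a higher pair (2 and 4), and dKO 4 came closest to control 1. The log2 fold change was −0.63 ± 0.18 (SE, n = 4 each, edgeR unadjusted p = 0.0044, adjusted p = 0.19). Control 2 and control 4 also had the highest levels of follicular B-2 markers, genes of conventional recirculating B cells. The mean log2 CPM of those markers was 4.996, 5.12, 5.27 and 5.601 in dKO 1 to 4 and 5.19, 6.76, 4.98 and 6.84 in control 1 to 4. Without control 2 and control 4 the log2 fold change of Mrpl38 was −0.34 (edgeR adjusted p = 0.41), and with the marker level as a covariate it was −0.39 (edgeR adjusted p = 0.37). Control 2 and control 4 were also the highest Mrpl38 controls, and leaving out the highest controls narrows the difference whatever their markers. The part of follicular B-2 cells in the Mrpl38 values was not tested.

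Mrpl9 encodes the counterpart of bacterial L9, a large subunit protein. It had 13.7, 14.3, 15.1 and 14.9 CPM in dKO 1 to 4, against 21.4, 29.2, 18.2 and 17.9 CPM in control 1 to 4. The dKO libraries lay close together and the controls were spread, with control 2 on top. The log2 fold change was −0.58 ± 0.18 (SE, n = 4 each, edgeR unadjusted p = 0.0082, adjusted p = 0.24). It was −0.32 without control 1 and control 2, the highest Mrpl9 controls, whose removal narrows the difference by itself. Mrps23 encodes a small subunit protein without bacterial counterpart. It had 86.1, 83.5, 62.7 and 88.6 CPM in dKO 1 to 4, against 94.3 CPM in control 2, 107.8 CPM in control 4 and 108.9 CPM in control 3, with control 1 between control 2 and control 4. The groups were separated by less than the range within either of them. Its log2 fold change was −0.36 ± 0.15 (SE, n = 4 each, edgeR unadjusted p = 0.032, adjusted p = 0.40).

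**Figure D2:**
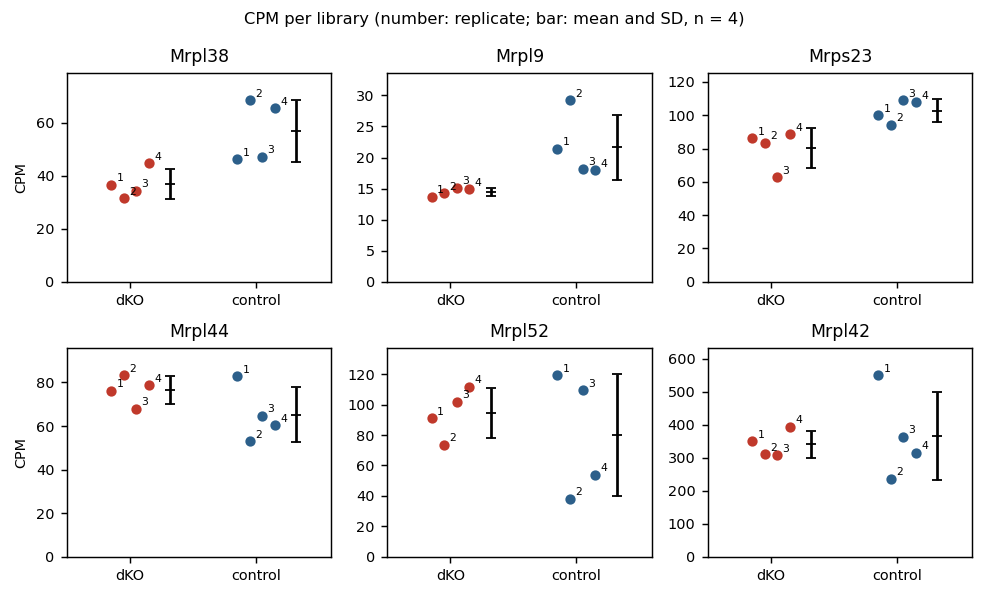
CPM in each library for Mrpl38, Mrpl9, Mrps23, Mrpl44, Mrpl52 and Mrpl42, dKO left and control right, with the replicate number beside each point and bars for the mean and SD (n = 4 each). For Mrpl38, Mrpl9 and Mrps23 all dKO points lie below all control points, and for Mrpl44, Mrpl52 and Mrpl42 the groups overlap.

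Most members followed 1 pattern across libraries, and that pattern ran within the genotypes. The mean log2 CPM over the 78 genes was 6.58, 6.52, 6.43 and 6.77 in dKO 1 to 4, against 6.999, 6.37, 6.68 and 6.70 in control 1 to 4. Control 1 was the highest and control 2 the lowest of the 8 libraries, so both ends of the range were controls. The means of the genotypes were 6.57 ± 0.15 in dKO and 6.69 ± 0.26 in controls (SD, n = 4 each), a difference smaller than the SD of either genotype. Control 1 was the highest library for 51 members, control 2 the lowest for 43 and dKO 3 the lowest for 26. All 4 dKO libraries lay inside the range of the controls for 37 members (47.4%), against 33.1% of all genes tested.

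**Figure D3:**
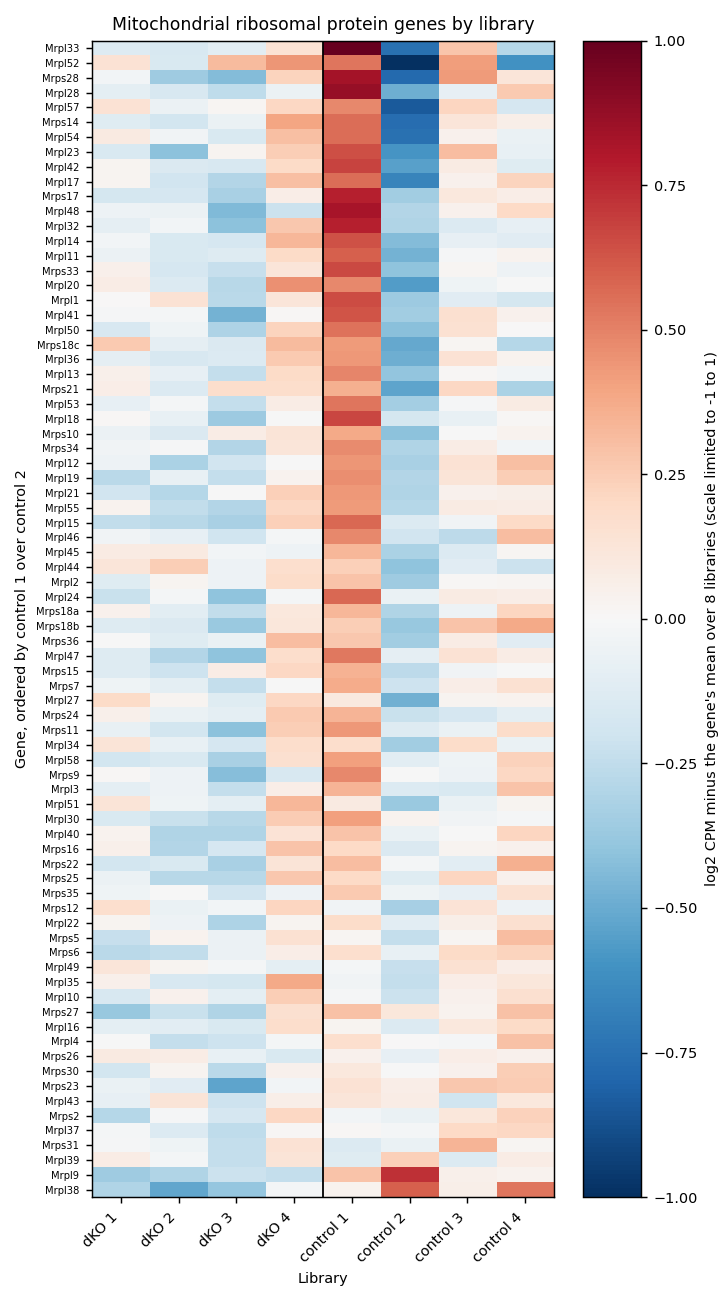
Log2 CPM of each of the 78 genes in each library minus the gene's mean over all 8 libraries, with dKO columns left and control columns right and genes ordered by the ratio of control 1 to control 2. Control 1 is high for 51 genes, the highest of 8 libraries, and control 2 is the lowest for 43.

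Between the controls at either end, 74 of 78 members were higher in control 1 than in control 2, with a median ratio of 1.55. Over all genes tested 46.4% were higher in control 1, with a median ratio of 0.95. The median correlation between pairs of members over the 8 libraries was 0.62, and over pairs of all genes tested it was 0.0018. These correlations run over genes of the same 8 libraries and describe those libraries. The mean of the other members was followed with a correlation above 0.5 by 68 members and above 0.9 by 19, Mrpl55 (0.97) and Mrpl50 (0.97) at the top. Mrpl39 (−0.21) ran weakly against it, and Mrpl9 (−0.07) and Mrpl38 (0.05) were near 0. The last 3 names include 2 of the 3 genes whose groups did not overlap, while the third, Mrps23, followed the mean of the other members with 0.51. That mean had controls at both ends. A gene whose dKO libraries all lie below its controls can follow it only in part, so low correlations of such genes are partly built in. Mrpl39, chosen after its values were seen, encodes a large subunit protein without bacterial counterpart. It had 72.9, 68.7, 58.8 and 75.8 CPM in dKO 1 to 4, against 63.8, 82.1, 63.3 and 73.1 CPM in control 1 to 4.

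The members differed in how far they spread. The coefficient of variation was larger among controls than among dKO libraries for 60 of 78 members (76.9%), against 71.3% of all genes tested. Its median over the members was 12.0% in dKO and 19.5% in controls, and over all genes tested 18.3% in dKO and 27.0% in controls. Mrpl52 and Mrpl33, both large subunit genes with short transcripts, had the highest variation within groups. Mrpl33, the counterpart of bacterial L33, had 96.0, 94.1, 97.7 and 116.2 CPM in dKO 1 to 4, against 211.1, 62.6, 127.1 and 86.4 CPM in control 1 to 4. The controls spanned 3.37-fold and enclosed all dKO libraries. Mrpl52 had 90.9, 73.7, 101.9 and 111.5 CPM in dKO 1 to 4, against 119.2, 38.3, 109.4 and 53.96 CPM in control 1 to 4. Its controls again enclosed the dKO libraries, and its log2 fold change of 0.24 ± 0.33 (SE, n = 4 each, edgeR adjusted p = 0.86) was the highest of the 78. Without control 2 and control 4, its lowest controls, it was −0.27.

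Transcript length moved with the ratio of control 1 to control 2. The longest annotated coding transcript had a median of 1327.5 bases over the members and 3027 bases over the other tested genes. The median ratio of control 1 to control 2 was 1.84 for the 24 members under 1000 bases and 1.45 for the 54 longer members. Among other tested genes it was 1.72 for 578 short genes and 0.91 for 10046 longer genes. The Spearman correlation of length with the log2 ratio was −0.28 over the 78 members and −0.36 over the other tested genes, across genes of the same libraries. The fold change of dKO over control had a median of −0.07 for the short members (10 of 24 positive) and −0.17 for the longer ones (8 of 54 positive), on the log2 scale. The part of transcript length in these values was not tested.

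**Figure D4:**
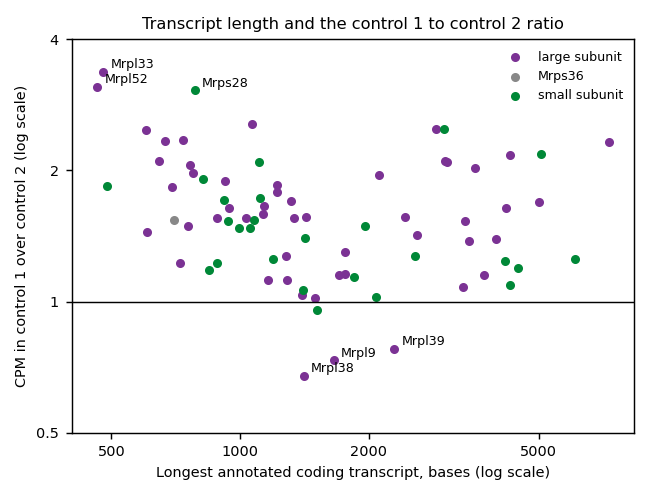
Longest annotated coding transcript in bases (log scale) against CPM in control 1 over CPM in control 2 (log scale), for the 78 genes, coloured by subunit. 74 of the 78 genes lie above a ratio of 1. The other tested genes are not drawn, and their median ratio is 1.72 under 1000 bases and 0.91 above.

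Control 1 and control 2 were also at the ends of 2 other sets, while the libraries between them stood in another order. Cytosolic ribosomal protein genes, 82 of 85 tested, had mean log2 CPM of 8.72, 8.81, 8.77 and 9.11 in dKO 1 to 4, against 9.52, 8.56, 8.99 and 8.68 in control 1 to 4. Of these, 67 were negative and 15 positive, the median log2 fold change was −0.19, and edgeR called 0. Nuclear-encoded respiratory chain genes, 77 of 83 tested, had mean log2 CPM of 7.46, 7.34, 7.40 and 7.71 in dKO 1 to 4, against 7.91, 7.13, 7.54 and 7.40 in control 1 to 4. Of these, 54 were negative and 23 positive with a median of −0.07, and edgeR called 0. In all 3 sets control 1 was the highest and control 2 the lowest library, with a median ratio between them of 1.55 for the mitochondrial ribosomal, 1.90 for the cytosolic ribosomal and 1.84 for the respiratory chain genes.

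**Figure D5:**
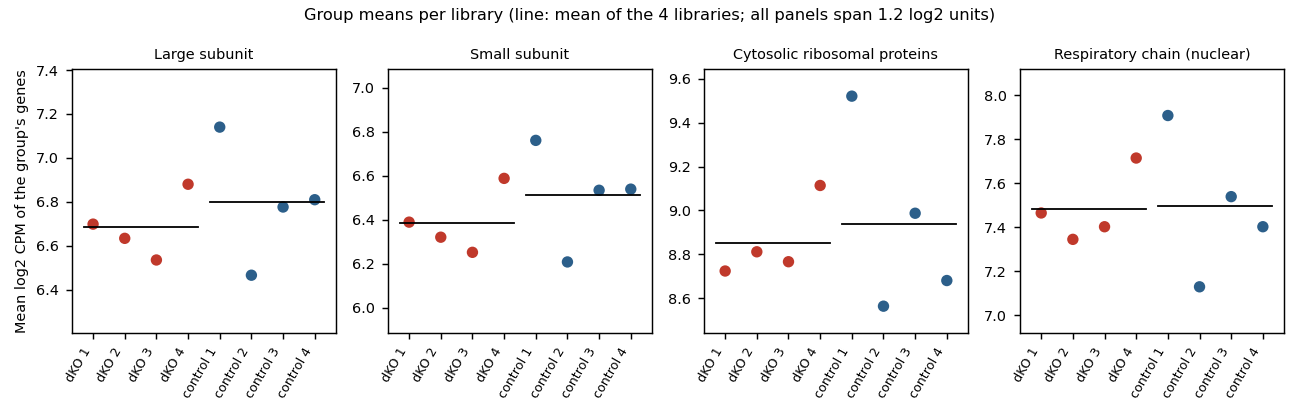
Mean log2 CPM per library, from left to right, of the 51 large subunit, 26 small subunit, cytosolic ribosomal and respiratory chain genes, dKO left and control right in each panel, with a line at the mean of each genotype and the same span of log2 units in every panel. Control 1 is highest and control 2 lowest in all 4 panels.

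Markers of B-1a cells, the type in the sample labels, and of other cells also differed between libraries. The log2 fold change was positive for 11 of 12 B-1a markers, with a median of 0.76. EdgeR called 1 of these higher, against 0.088% of all genes tested called. It was negative for 10 of 11 follicular B-2 markers, with a median of −0.60 and 0 called. Marker levels thus differed with genotype. Summed follicular B-2 markers (11 of 12 in the table) were 2481 to 2671 CPM in dKO and 1818 to 4184 CPM in controls, and 12 summed B-1a markers were 1160 to 1581 CPM in dKO and 564 to 1254 CPM in controls. Summed myeloid markers (10) were 502 to 2227 CPM in dKO and 733 to 5267 CPM in controls, and T cell markers (10) 1684 to 2592 CPM in dKO and 1630 to 2495 CPM in controls. Plasma cell markers (6) were 3233 to 3907 CPM in dKO and 2066 to 3112 CPM in controls, without overlap. NK cell markers (8) stayed at 11.8 to 18.9 CPM in dKO and 2.67 to 41.4 CPM in controls, and pro-B markers (11) at 23.0 to 55.1 CPM in dKO and 45.7 to 247.1 CPM in controls, with Kit at 0. Erythroid markers (8) stayed at 0.743 to 9.13 CPM in dKO and 0.387 to 7.22 CPM in controls, and the 4 globin genes had no counts. With the follicular B-2 marker level as a covariate, 69 members were negative and 9 positive with a median log2 fold change of −0.20. In that fit 9 members were lower in dKO at an unadjusted edgeR p under 0.05, against 4.7% of all genes tested. The part of follicular B-2 cells and of the other cell types in the members' values was not tested. Without control 2 and control 4, the libraries with the most follicular B-2 markers, 70 members were negative and 8 positive with a median log2 fold change of −0.27. In that comparison 18 members did not overlap and were lower in dKO, against 10.5% of all genes tested, and 13 were lower at an unadjusted edgeR p under 0.05, against 6.91%. At an adjusted p under 0.05 edgeR again called 0 members.

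Large and small subunit genes kept a similar distance in every library. Large subunit genes were on average higher than small subunit genes by 0.31, 0.31, 0.28 and 0.29 log2 CPM in dKO 1 to 4, and by 0.38, 0.26, 0.24 and 0.27 in control 1 to 4. That distance overlapped between the genotypes. The log2 fold change had a median of −0.15 over the 51 large subunit genes (38 negative) and −0.14 over the 26 small subunit genes (22 negative). It was −0.13 over the 45 genes with a bacterial counterpart (35 negative) and −0.16 over the 31 mitochondria-specific genes (24 negative). The 10 mitochondria-specific genes of the small subunit were all negative, with a median of −0.16. No class held a gene called by edgeR, which called 0.088% of all genes tested.

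Among large subunit genes, the most abundant were Mrpl42, Mrpl51 and Mrpl12. Mrpl42, whose product has no bacterial counterpart, had the highest mean of all members, 352.9 CPM, and also the highest level per length, 529.9 CPM per kilobase of its longest annotated coding transcript. It had 349.5, 310.4, 307.3 and 393.0 CPM in dKO 1 to 4, against 549.3, 235.6, 363.3 and 315.0 CPM in control 1 to 4. The controls enclosed the dKO libraries. Its log2 fold change of −0.11 ± 0.23 (SE, n = 4 each, edgeR adjusted p = 0.92) turned to 0.17 without control 1. Mrpl12, the counterpart of the bacterial stalk protein that recruits translation factors, had 276.6, 229.9, 251.1 and 285.4 CPM in dKO 1 to 4, against 387.9, 228.5, 317.0 and 352.6 CPM in control 1 to 4. Of its controls, 3 lay above every dKO library and control 2 lay below them, with a log2 fold change of −0.30 ± 0.18 (SE, n = 4 each, edgeR adjusted p = 0.61).

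Further large subunit genes on the negative side were Mrpl24, Mrpl47 and Mrpl19, counterparts of bacterial L24, L29 and L19, and Mrpl48, a protein of the central protuberance without bacterial counterpart. Mrpl24 had 65.8, 75.8, 58.2 and 75.9 CPM in dKO 1 to 4, against 114.3, 73.4, 81.5 and 80.5 CPM in control 1 to 4. Control 2 alone fell inside its dKO range. Mrpl48 had 129.0, 128.2, 98.3 and 115.6 CPM in dKO 1 to 4, against 236.7, 109.3, 137.9 and 153.6 CPM in control 1 to 4, the same arrangement. Their log2 fold changes were −0.34 ± 0.17 for Mrpl24 and −0.44 ± 0.22 for Mrpl48 (SE, n = 4 each, edgeR adjusted p = 0.51 and 0.52). Mrpl47 and Mrpl19 had log2 fold changes of −0.33 ± 0.18 and −0.29 ± 0.17 (SE, n = 4 each, edgeR adjusted p = 0.56 and 0.60), also with overlapping groups.

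Large subunit genes on the positive side were led by Mrpl44, a protein related in fold to RNase III. Mrpl44 had 76.2, 83.3, 67.8 and 78.8 CPM in dKO 1 to 4, against 82.8, 52.9, 64.8 and 60.3 CPM in control 1 to 4. Control 2 to 4 lay below every dKO library and control 1 just under the highest of them, with a log2 fold change of 0.23 ± 0.16 (SE, n = 4 each, edgeR adjusted p = 0.67). Mrpl51 had 344.5, 305.7, 295.0 and 398.0 CPM in dKO 1 to 4, against 335.9, 244.1, 302.0 and 322.0 CPM in control 1 to 4, which overlapped. Mrpl27, the counterpart of bacterial L27 near the catalytic centre, was at 109.8 to 137.6 CPM in dKO and at 85.6 to 127.7 CPM in controls. Log2 fold changes were 0.16 ± 0.16 for Mrpl51, 0.14 ± 0.16 for Mrpl27, 0.06 ± 0.16 for Mrpl35 and 0.08 ± 0.23 for Mrpl57 (SE, n = 4 each, edgeR adjusted p = 0.80 to 0.95).

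Among small subunit genes, Mrps14 was the most abundant and Mrps27 and Mrps2 were the least. Mrps14, the counterpart of bacterial S14, had 312.8, 298.8, 325.3 and 446.8 CPM in dKO 1 to 4, against 499.9, 200.8, 369.4 and 353.4 CPM in control 1 to 4. Controls lay at both ends, and the log2 fold change was −0.04 ± 0.25 (SE, n = 4 each, edgeR adjusted p = 0.98). Mrps27, a pentatricopeptide repeat protein, had 6.32, 7.06, 6.67 and 9.20 CPM in dKO 1 to 4, against 10.1, 8.89, 8.44 and 10.1 CPM in control 1 to 4. Only dKO 4 reached into the control range, and the log2 fold change was −0.36 ± 0.20 (SE, n = 4 each, edgeR adjusted p = 0.56). Mrps2, the counterpart of bacterial S2, was at 11.9 to 16.9 CPM in dKO and at 13.9 to 17.1 CPM in controls. Per kilobase of transcript, Mrps27 (4.51 CPM) and Mrps2 (7.05 CPM) were also the lowest members.

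The other small subunit genes named here had overlapping groups. Mrps9, the counterpart of bacterial S9, had 44.9, 43.2, 33.2 and 39.8 CPM in dKO 1 to 4, against 62.2, 44.4, 43.1 and 51.5 CPM in control 1 to 4. Its groups overlapped between 43.1 and 44.9 CPM, and the log2 fold change was −0.32 ± 0.16 (SE, n = 4 each, edgeR adjusted p = 0.53). Mrps12, the counterpart of the decoding-centre protein S12, was at 172.3 to 208.8 CPM in dKO and at 143.1 to 198.0 CPM in controls, a log2 fold change of 0.14 ± 0.15 (SE, n = 4 each, edgeR adjusted p = 0.81). Mrps18c, Mrps21 and Mrps24, counterparts of bacterial S18, S21 and S3, had log2 fold changes of 0.15 ± 0.21, 0.10 ± 0.20 and 0.06 ± 0.17 (SE, n = 4 each, edgeR adjusted p = 0.87 to 0.94). Without control 2 and control 4 these 3 were negative, at −0.13, −0.20 and −0.06.

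With 0 of 78 members and 0.088% of all genes tested called by edgeR, calls cannot compare members with and without a miR-15/16 seed match. The median log2 fold change was −0.20 over the 14 genes with a match (2 positive) and −0.12 over the 64 without (16 positive), and edgeR called none of either. Mrps6, the counterpart of bacterial S6 and holder of one of the sites shown above, had 27.1, 27.5, 31.4 and 34.2 CPM in dKO 1 to 4, against 36.6, 31.0, 37.2 and 38.0 CPM in control 1 to 4. Control 2 lay inside the dKO range and the other controls above the dKO libraries, with a log2 fold change of −0.25 ± 0.14 (SE, n = 4 each, edgeR adjusted p = 0.58). Mrpl3 and Mrps25, which carry the other 2 sites shown and were chosen for them, had log2 fold changes of −0.18 ± 0.16 and −0.16 ± 0.16 (SE, n = 4 each, edgeR adjusted p = 0.76 and 0.81). A match is a description of sequence and not a measured target.

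Promoters were read because the members vary together. RefSeq windows of 250 bases before to 50 after the start (GRCm38.p6) were matched for 69 of the 78 genes, some with more than 1 start, which gave 75 windows. Both strands were searched for CCGGAAG (the ETS family motif), AAGATGGC (YY1), CGCATGCG (NRF1), GGGCGG (SP1) and CACGTG (the E-box), none of which contains another. The ETS letters were in 34.7% of the members' windows, against 18.6% of 11328 windows of other tested genes and 8.86% of all 32851 windows. The YY1 letters were in 16.0%, against 4.64% of the other tested windows and 2.75% of all windows. The NRF1 letters were in 9.33%, against 4.09% of the other tested windows and 1.87% of all windows. The SP1 letters were in 52.0%, against 61.8% of the other tested windows and 35.7% of all windows, and the E-box in 9.33%, against 10.2% and 7.15%.

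Stretches of 200 bases around a start are shown with motif letters in capitals (GRCm38.p6, each 5′ to 3′ on its own gene's strand). Mrpl9 and Mrps23 are shown because their groups did not overlap, with an NRF1 motif in Mrpl9 and an ETS motif in Mrps23. Mrpl38, whose groups did not overlap either, had no promoter window. Mrps11 and Mrpl46 are shown because they are read from opposite strands of 1 locus. Mrps11 has a YY1 and an SP1 motif, and the SP1 motif is also read in Mrpl46.
Mrpl9, chr3:94443186-94443385, plus strand: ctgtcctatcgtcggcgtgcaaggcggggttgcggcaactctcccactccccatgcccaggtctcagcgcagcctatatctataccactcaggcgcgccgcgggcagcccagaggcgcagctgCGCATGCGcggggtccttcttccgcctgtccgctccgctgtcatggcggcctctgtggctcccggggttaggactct
Mrps23, chr11:88204238-88204437, plus strand: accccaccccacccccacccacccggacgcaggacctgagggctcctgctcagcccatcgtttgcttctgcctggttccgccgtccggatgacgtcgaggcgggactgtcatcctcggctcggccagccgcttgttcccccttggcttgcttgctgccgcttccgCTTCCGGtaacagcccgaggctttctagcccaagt
Mrps11, chr7:78782981-78783180, plus strand: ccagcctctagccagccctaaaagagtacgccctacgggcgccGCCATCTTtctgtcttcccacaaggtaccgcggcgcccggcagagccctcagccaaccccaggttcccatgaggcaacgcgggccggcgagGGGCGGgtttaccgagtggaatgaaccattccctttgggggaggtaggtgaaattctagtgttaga
Mrpl46, chr7:78783040-78783239, minus strand: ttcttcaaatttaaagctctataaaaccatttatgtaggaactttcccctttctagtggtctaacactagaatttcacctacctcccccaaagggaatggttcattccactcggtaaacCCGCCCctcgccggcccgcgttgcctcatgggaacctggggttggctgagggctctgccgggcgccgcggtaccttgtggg
The last 2 stretches share 141 bases. Mrps11, the counterpart of bacterial S11, had 100.1, 92.4, 79.1 and 124.8 CPM in dKO 1 to 4, against 141.8, 96.2, 100.5 and 119.4 CPM in control 1 to 4. Mrpl46, a central protuberance protein, had 136.2, 131.4, 121.3 and 137.4 CPM in dKO 1 to 4, against 194.4, 122.2, 115.9 and 172.2 CPM in control 1 to 4. Both sets of groups overlapped, with log2 fold changes of −0.21 ± 0.18 for Mrps11 and −0.20 ± 0.18 for Mrpl46 (SE, n = 4 each, edgeR adjusted p = 0.76 and 0.77). The genes were chosen for their position, after their values were seen. Their exons overlap on opposite strands, as do those of 28 members with some other gene, while the strand used in counting was not given in the sources used here. Reads of such pairs may have been shared or lost, and the same holds for 8 members that overlap a gene on the same strand and for Mrps36, Mrpl23 and Mrpl48, which have pseudogenes of their own symbol.

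The machinery around the mitoribosome also held no call, in a fit that called 10 of 11363 genes (0.088%). Of 5 mitoribosomal proteins under other symbols, 4 had negative log2 fold changes with a median of −0.17 and edgeR called 0. Gadd45gip1, a large subunit protein, had 31.4, 29.3, 110.2 and 169.8 CPM in dKO 1 to 4, against 164.7, 130.1, 259.7 and 168.1 CPM in control 1 to 4. Within dKO the libraries differed widely, dKO 1 to 3 below all controls and dKO 4 among them, with a log2 fold change of −1.08 ± 0.57 (SE, n = 4 each, edgeR adjusted p = 0.56). Dap3 and Chchd1, both of the small subunit, had log2 fold changes of −0.10 ± 0.14 and −0.17 ± 0.22 (SE, n = 4 each, edgeR adjusted p = 0.86 and 0.85).

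Of 15 mitochondrial translation factors, 9 were negative and 6 positive with a median log2 fold change of −0.11, and edgeR called 0. Mtrf1l, a release factor, had 12.3, 12.7, 13.2 and 9.64 CPM in dKO 1 to 4, against 15.9, 18.2, 14.6 and 15.7 CPM in control 1 to 4. Its groups did not overlap, with a log2 fold change of −0.43 ± 0.17 (SE, n = 4 each, edgeR adjusted p = 0.38). Tufm, the elongation factor that brings aminoacyl-tRNA, did not overlap either, at 49.8 to 55.7 CPM in dKO and 58.7 to 74.1 CPM in controls, a log2 fold change of −0.26 ± 0.13 (SE, n = 4 each, edgeR adjusted p = 0.53). Mtif2, the initiation factor, was on the other side, at 50.3 to 69.1 CPM in dKO and 40.0 to 57.8 CPM in controls, a log2 fold change of 0.38 ± 0.16 (SE, n = 4 each, edgeR adjusted p = 0.41). Of 26 assembly and rRNA modification genes, 20 were negative with a median of −0.12 and edgeR called 0. Mterf3, a mitochondrial RNA-binding regulator of ribosome assembly, had 36.0, 36.3, 36.9 and 38.6 CPM in dKO 1 to 4, against 61.1, 39.1, 52.6 and 51.9 CPM in control 1 to 4. Control 2 came close to dKO 4 without overlap, and the log2 fold change was −0.47 ± 0.15 (SE, n = 4 each, edgeR adjusted p = 0.25). Mterf4 and Rpusd4 had log2 fold changes of −0.32 ± 0.16 and −0.26 ± 0.14 (SE, n = 4 each, edgeR adjusted p = 0.53 and 0.56).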

How the data were processed

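Read counts per gene for 4 dKO and 4 control libraries were used as the authors deposited them, unscaled, and grouped by sample titles. Per the labels' protocols, RNA was amplified by SMART-seq. Per the submitters' processing notes, Trimmomatic, STAR and featureCounts were used on GRCm39; versions, annotation and strandedness were not given in the sources used here. There were 3 unnamed columns, which were not used. Among counts below 20, 72.7% to 77.3% per library were even, as when both mates of a pair are counted. A level of 3 counts was 0.0854 to 0.111 CPM, counting error only.

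After filterByExpr and TMM scaling, 1 fit in edgeR 4.0.16 (robust quasi-likelihood test, R 4.3.3) compared the genotypes. Its p-values were Benjamini-Hochberg adjusted over all 11363 genes and called at an adjusted p under 0.05. CPM was computed on TMM-scaled totals and log2 CPM with a prior count of 2. Checked on simulated data, the fit recovered 3.28% of 1.5-fold changes, 37.0% of 2-fold and 77.3% of 4-fold changes. The series text gives 4 mice per group, and no 2 libraries of the same genotype agreed within sampling noise.

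The members and lists were chosen with earlier results of these data known. Named members were up to 10 per direction with the smallest p, the 4 highest, 2 lowest and 2 most variable within groups, and up to 3 genes per related list. Other members were picked with their values in view, or named for a sequence or a correlation. The fit was repeated with DESeq2 1.42.0, with limma 3.58.1 voom and quality weights, with upper quartile and RLE scaling, unfiltered, with a filter of CPM above 5 in 4 libraries, with halved counts, with a replicate block, with a follicular B-2 covariate and without single or paired libraries.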

Additional observations from a re-analysis of the deposited data

Results flagged for a closer look

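A total of 4 values stood apart from the other libraries of their genotype, among 92 groups of 4 libraries examined, where chance alone picks out about 1 in 20. Mrpl33 in dKO 4 was the highest dKO library at 116.2 CPM, apart from the other dKO libraries. Mrpl27 in control 2 was the lowest control at 85.6 CPM, apart from the other controls. Tufm in control 4 was the highest control at 74.1 CPM. Rag1 in control 2, at 0.135 CPM, was the only library of either genotype with a count. No explanation of these values was tested.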

How the results depend on the processing

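The members' result of 0 calls with edgeR held under every scaling, filter and library choice and with DESeq2, and limma voom called 1 lower (Mrpl38, log2 fold change −0.69, adjusted p = 0.034). The count over all genes, 10 in the reported fit, was 40 without the filter, 20 with the follicular covariate, 59 without control 2 and control 4, 92 without control 1 and control 2 (chosen after seeing the data), 322 with DESeq2 and 282 with limma voom. Leaving out 1 library gave 4 to 98 calls, 4 of them without dKO 2, dKO 3 or dKO 4 and 98 without control 1. Members without overlap and lower in dKO numbered 18 without control 2 and control 4, 14 without control 1 and control 2, and 3 to 13 when single libraries were dropped, 13 without control 2 and 12 without dKO 4. Those higher numbered 1 without control 1 and control 2, and 0 to 2 with 1 left out. Whole-table shares are not given for the higher counts. Nor are they given for the lower counts of the other single-library fits, so these counts cannot be set against all genes tested. The members' median was −0.27 without control 2 and control 4, and with 1 library left out it ranged from −0.24 without control 2 to −0.01 without control 1.

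Over all named members and alternatives, 23 log2 fold changes turned their sign. With the follicular covariate Mrpl52 was −0.054, Mrps18c −0.032, Mrps21 −0.10 and Mrpl57 −0.15. Without control 2 and control 4 they were −0.27, −0.13, −0.20 and −0.27, and Mrps24 −0.062. Mrpl35 was −0.049 without control 1 and control 2 and −0.027 with limma voom, where Mrpl42 was 0.00043. With 1 library left out, Mrpl42 ranged from −0.27 to 0.17, Mrps14 from −0.24 to 0.18, Mrpl33 from −0.49 to 0.14, Mrps21 from −0.032 to 0.26, Mrpl35 from −0.083 to 0.12, Mrpl57 from −0.12 to 0.29 and Mrps24 from −0.027 to 0.21. The cause was not tested.

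Same-numbered libraries had correlations of their deviations of −0.01, −0.07, 0.06 and 0.15, against −0.18 to 0.17 for differently numbered ones. These values show no pairing by number and cannot exclude one. With the replicate block edgeR called 9 genes and 0 members, with a members' median of −0.12, and Mrps14 turned to 0.014.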

Other observations

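Other mitochondrial gene expression genes also held no gene called by edgeR, which called 0.088% of all genes tested. Of 20 aminoacyl-tRNA synthesis genes, 9 had positive and 11 negative log2 fold changes with a median of −0.01. Lars2, the mitochondrial leucyl-tRNA synthetase, had 350.6, 252.9, 438.4 and 246.4 CPM in dKO 1 to 4, against 123.1, 182.3, 211.2 and 223.8 CPM in control 1 to 4. All dKO libraries lay above all controls, with a log2 fold change of 0.80 ± 0.23 (SE, n = 4 each, edgeR adjusted p = 0.20). Qrsl1, a subunit of the enzyme that makes glutaminyl-tRNA in mitochondria, was at 22.3 to 25.7 CPM in dKO and 15.9 to 21.96 CPM in controls, also without overlap, with a log2 fold change of 0.45 ± 0.15 (SE, n = 4 each, edgeR adjusted p = 0.30). Yars2, the tyrosyl-tRNA synthetase, ran the other way at −0.50 ± 0.19 (SE, n = 4 each, edgeR adjusted p = 0.36).

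Of 6 mitochondrial transcription genes, 5 were negative with a median of −0.09. Tfam, which packages mitochondrial DNA and starts its transcription, had 73.2, 93.2, 81.3 and 98.8 CPM in dKO 1 to 4, against 150.8, 124.7, 95.1 and 137.4 CPM in control 1 to 4. Only dKO 4 and control 3 crossed, and the log2 fold change was −0.55 ± 0.17 (SE, n = 4 each, edgeR adjusted p = 0.23). Tfb2m and Polrmt, its partners in initiation, had log2 fold changes of 0.12 ± 0.15 and −0.17 ± 0.27 (SE, n = 4 each, edgeR adjusted p = 0.85 and 0.88).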
